A study of Homo sapiens with 9 samples.

Results

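Hypoxia response and oxygen-sensing genes were followed in DOHH2, an established human cell line from a B-cell lymphoma of germinal centre type. The group holds 32 genes chosen by name from textbook knowledge of the HIF pathway: the HIF subunits, the enzymes that sense oxygen, the protein that marks HIF for degradation, and well-known HIF targets. Earlier results of these data were known when the genes were chosen. All 32 were found among the 58243 gene identifiers of the count files, and 26 had enough counts to be tested. Bulk RNA-seq libraries came from 3 groups of 3. The first is DOHH2 grown in culture and sampled when mice were grafted (day 0), and the others are DOHH2 cells sorted as human CD20-positive out of RAGγc mouse femurs, 19 or 40 days after the graft. All groups come from the same line, no genotype or drug differed between them, and the age of the mice and the number of mice behind a library were not given in the sources used here. Femur cells went through enzyme digestion, bead depletion of mouse blood cells and sorting, and the labels describe no such steps for cultured cells, so growth in the femur and this handling cannot be told apart. The dates in the titles place the libraries of a group in separate sampling periods, but whether these were separate cultures or mice is not stated. The p-values therefore measure only the spread between these libraries.

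In cells, a HIF transcription factor is a pair of an oxygen-labile alpha subunit (HIF1A or EPAS1) and a stable partner, ARNT. When oxygen is present, prolyl hydroxylases of the EGLN family (also called PHD enzymes) modify the alpha subunit, the VHL ubiquitin ligase then binds it, and the proteasome destroys it; a further hydroxylase, HIF1AN (FIH), blocks the recruitment of coactivators. Low oxygen slows these enzymes, the alpha subunit accumulates as protein, and the pair switches on genes for glycolysis, blood vessel growth, mitochondrial turnover and, as feedback, EGLN3. Bone marrow is known as a tissue of low oxygen, while standard culture is kept near the oxygen of air. RNA levels such as those measured here do not report the amount of HIF protein.

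Libraries held between 21071239 and 29456271 counts assigned to genes. By the dates read from the titles, the day 19 libraries fall 18, 19 and 19 days after the culture library of their sampling period. The day 40 libraries fall 11, 26 and 39 days after it. Whether these are dates of collection, and which libraries form a period, is not stated. If they are, day 40 replicates 1 and 2 cannot be day 40 of that culture. All 7 B-cell markers were detected in every group, with summed levels of 3899 to 4876 CPM in culture (CPM being the counts of a gene scaled to a common library size), 2329 to 2546 CPM at day 19 and 2821 to 3043 CPM at day 40. The 10 stromal markers summed to 1.16 to 1.49 CPM in culture, 4.97 to 7.54 CPM at day 19 and 4.38 to 5.29 CPM at day 40, mostly from PDGFRB, with COL1A2, COL3A1, LUM, POSTN and CXCL12 at 0 counts in all 9 libraries. Of the 10, 5 had 0 counts in every culture library, 7 in every day 19 library and 6 in every day 40 library. The 6 endothelial markers summed to 4.42 to 7.60 CPM in culture, 1.61 to 3.12 CPM at day 19 and 3.28 to 4.24 CPM at day 40, nearly all from PECAM1. The 5 erythroid markers reached at most 0.164 CPM, and the 7 myeloid markers summed to 2.63 to 5.00, 4.98 to 6.29 and 2.87 to 5.69 CPM in culture, day 19 and day 40. Their part in the results below was not tested.

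The genes did not move in a single direction when DOHH2 cells grew in the femur. HIF1A, the prolyl hydroxylase EGLN2, the angiogenic factor VEGFA, the glycogen branching enzyme GBE1, the repressor BHLHE40 and ANKZF1 rose at both day 19 and day 40. ARNT, the glycolytic regulators PFKFB3 and PFKFB4, the pyruvate dehydrogenase kinase PDK1, and the mitochondrial genes FAM162A and BNIP3L fell at both days. The largest rise at day 19 was that of BHLHE40, 14.9-fold, and the largest fall that of PFKFB4, 4.44-fold lower than in culture. CA9, ADM, NDRG1 and EPAS1, which are strong hypoxia-induced genes or a HIF subunit in other cell types, had 0 to 12 counts in each of the 9 libraries.

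Expression was compared with edgeR's quasi-likelihood test on the counts, with Benjamini-Hochberg adjustment over 15163 genes, and a gene was called at an adjusted p under 0.05. Values in parentheses beside a gene are its log2 fold change, the standard error (SE) of that change and the adjusted p. At day 19 against culture, 6 of the 26 tested genes were higher and 9 lower, and 11 did not pass. That is 57.7% of the tested genes, beside 52.8% of all genes tested (26.3% higher and 26.5% lower). The median log2 fold change of the 26 was -0.04, beside 0.01 for all genes. At day 40 against culture, 8 were higher, 7 lower and 11 did not pass, again 57.7%, beside 46.6% of all genes (23.3% in each direction), with a median of -0.12 beside 0.01. A large part of the expressed genome differed between culture and femur, and the shares of calls among the 26 genes lie near those of all genes. Changes of at least 2-fold were few: 1 gene higher and 2 lower at day 19, and 2 higher and 2 lower at day 40. Both comparisons use the same 3 culture libraries, so their values are set side by side and a like direction at both days is not counted as independent. Without day 40 replicates 1 and 2, the day 40 calls came to 4 higher and 4 lower, while those over all genes came to 4065 in place of 7065, and EGLN3 had too few counts for that fit. In bulk RNA, a lower level can mean fewer cells that express a gene or less RNA in each cell, and these cannot be told apart.

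**Figure D1:**
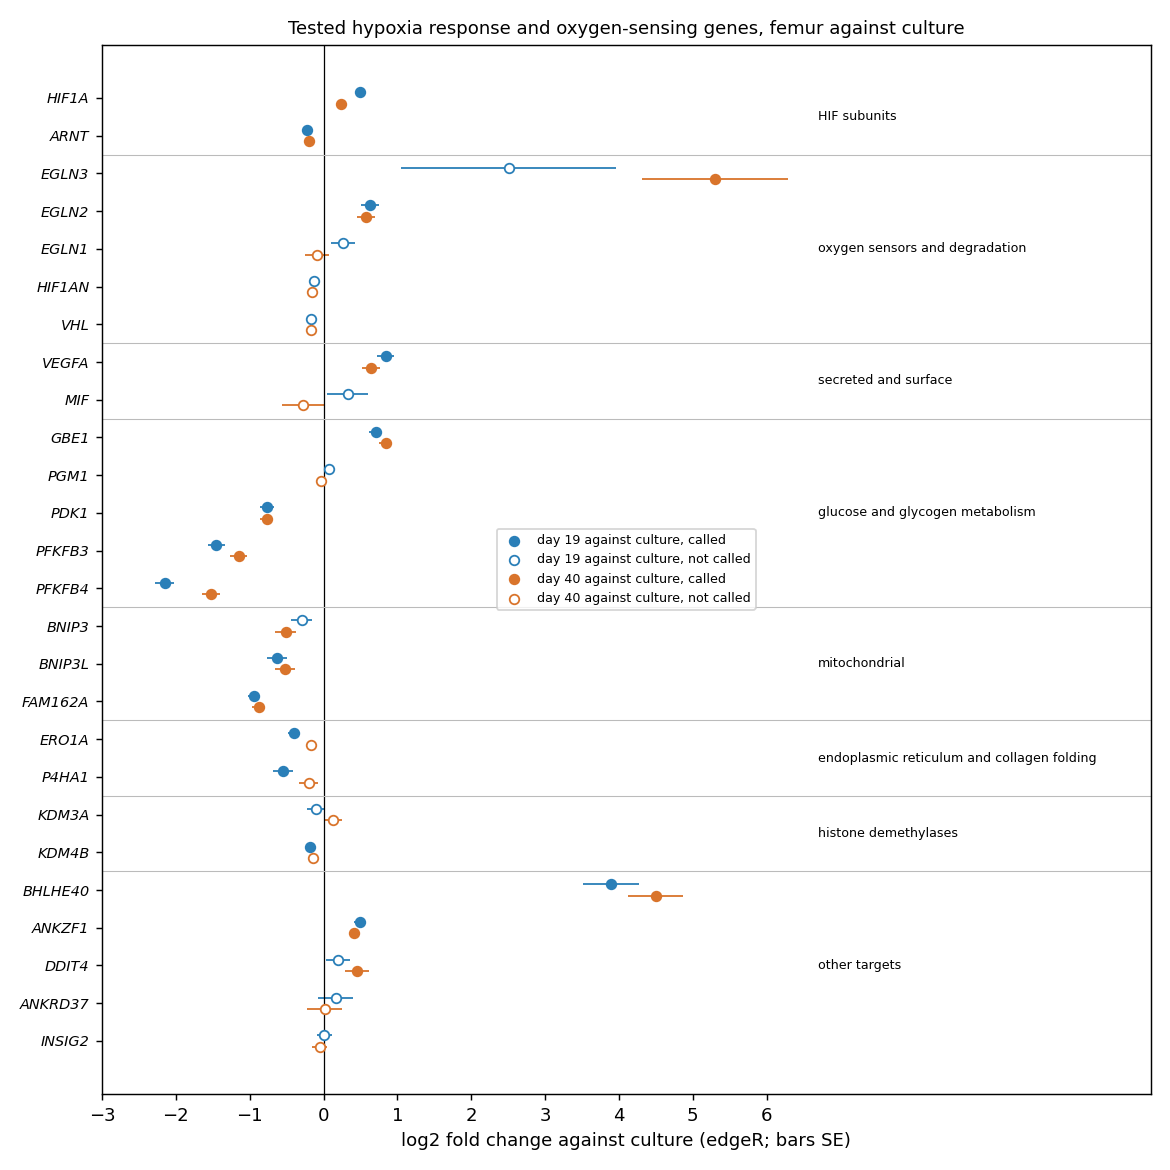
Log2 fold change against culture on the x axis for each of the 26 tested genes, grouped by role, at day 19 (blue) and day 40 (orange), with bars for the standard error; filled points passed an adjusted p of 0.05 and open points did not. BHLHE40 and EGLN3 stand far to the right, PFKFB3 and PFKFB4 are the genes furthest to the left, and most of the others lie within 1 of 0.

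HIF1A, the oxygen-labile alpha subunit (chromosome 14, 61695513 to 61748259 on hg38, with positions here and below from GENCODE 29), rose. HIF1A RNA was at 121, 125 and 113 CPM in the 3 culture libraries, 169, 166 and 170.2 CPM at day 19 and 146, 139 and 138 CPM at day 40. Every day 19 library lay above every day 40 library, and every day 40 library above every culture library. The rise was 1.405-fold at day 19 (0.49, SE 0.06, adjusted p = 2.67e-05) and 1.18-fold at day 40 (0.23, SE 0.06, adjusted p = 0.00634). Without day 40 replicates 1 and 2, the day 40 rise was 0.19 and did not pass (adjusted p = 0.155).

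ARNT, the constitutive partner of HIF1A (chromosome 1, 150809705 to 150876768), fell slightly. ARNT was at 51.8, 51.2 and 53.02 CPM in culture, 45.1, 43.6 and 44.98 CPM at day 19 and 44.9, 45.2 and 45.4 CPM at day 40. The culture libraries lay above all 6 femur libraries, and the 2 femur groups overlapped. The log2 fold changes were -0.22, SE 0.06, adjusted p = 0.00777 at day 19 and -0.20, SE 0.06, adjusted p = 0.0147 at day 40. Scaling by total counts in place of TMM, which moves the median of all genes by 0.088 at day 19 and 0.083 at day 40, took ARNT to -0.14 (adjusted p = 0.111) and -0.12 (adjusted p = 0.161), and day 40 was also lost without a filter on low counts (-0.23, adjusted p = 0.0521) and without day 40 replicates 1 and 2 (-0.21, adjusted p = 0.14). EPAS1, the second alpha subunit (HIF-2 alpha), had 0, 0 and 0 counts in the culture libraries, 1, 0 and 3 at day 19 and 1, 0 and 0 at day 40, too few to test. HIF3A, a further alpha subunit from the list of other pathway genes, had 0, 0 and 2 counts in the culture libraries, 1, 1 and 4 at day 19 and 0, 0 and 0 at day 40 and was not tested either.

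The prolyl hydroxylases differed from each other. EGLN1 (PHD2), in most cells the main hydroxylase of HIF1A, did not pass the test: its levels were 19.01, 25.4 and 17.3 CPM in culture, 27.3, 23.8 and 22.7 CPM at day 19 and 23.1, 19.8 and 14.9 CPM at day 40. The groups overlapped, and culture replicate 2 stood above the other culture libraries. The log2 fold change was 0.26 at day 19 (95% interval -0.10 to 0.62, adjusted p = 0.204) and -0.09 at day 40 (95% interval -0.45 to 0.27, adjusted p = 0.677). Without culture replicate 2, the day 19 difference was 0.43 and passed (adjusted p = 0.0343).

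EGLN2 (PHD1, chromosome 19, 40798996 to 40808433) rose. EGLN2 was at 10.9, 10.4 and 11.9 CPM in culture, 14.9, 20.1 and 16.3 CPM at day 19 and 16.1, 17.4 and 16.1 CPM at day 40. All 6 femur libraries lay above the 3 culture libraries, with day 19 replicate 2 the highest. The rise was 1.54-fold at day 19 (0.62, SE 0.12, adjusted p = 9.54e-04) and 1.49-fold at day 40 (0.58, SE 0.12, adjusted p = 0.002), and without day 40 replicates 1 and 2 the day 40 value was 0.52 and did not pass (adjusted p = 0.0525). Part of its exon sequence is shared with the read-through gene RAB4B-EGLN2, which was listed at 0 counts in all 9 libraries, and how reads from the shared part were assigned is not stated.

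EGLN3 (PHD3), the hydroxylase that HIF itself induces in many cell types, was close to 0 in culture and came up at day 40. Its counts were 0, 1 and 0 in culture, 0, 6 and 1 at day 19 and 24, 28 and 10 at day 40. The 3 day 40 libraries lay above the other 6, and day 19 replicate 2 was the highest of the rest. Summed over each group and scaled by depth, the ratio of day 40 to culture was 54.04, with a 95% counting interval of 9.35 to 2168, and the edgeR test passed (adjusted p = 9.79e-04). At day 19 the ratio to culture was 7.36 (95% counting interval 0.945 to 332) and the test did not pass (adjusted p = 0.164). The fitted log2 fold change of a gene with so few counts (5.30 at day 40) depends on the small prior count of the fit and is not used as a size. Its antisense partner EGLN3-AS1 had 0 counts in all 9 libraries.

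Scaled to exon length, EGLN1 and EGLN2 made up nearly all of the EGLN transcripts. EGLN2 shares as many as 2012 of its 6577 exon bases with another gene on its strand, and how reads there were assigned is not stated. The split between EGLN1 and EGLN2 is therefore uncertain. EGLN1 held 62.3 ± 6.003% of the summed EGLN level in culture (SD, n = 3), 56.5 ± 5.48% at day 19 and 49.96 ± 5.16% at day 40. EGLN2 held 37.7 ± 6.07%, 43.2 ± 5.21% and 48.2 ± 5.56%. EGLN3 remained at 1.87 ± 0.571% at day 40, against 0.0406 ± 0.0704% in culture and 0.233 ± 0.319% at day 19. The EGLN1 share ranged from 56.9% to 68.8% over the culture libraries and from 45.04% to 55.3% over the day 40 libraries, which did not overlap, while day 19 overlapped both.

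HIF1AN and VHL were slightly lower in the femur without passing the test. HIF1AN, the asparaginyl hydroxylase, was at 79.99, 69.99 and 77.9 CPM in culture, 68.1, 71.8 and 68.9 CPM at day 19 and 68.7, 65.5 and 71.2 CPM at day 40. Its groups overlapped, through culture replicate 2, and the log2 fold changes were -0.13 (adjusted p = 0.134) and -0.15 (adjusted p = 0.0853). Without culture replicate 2 they were -0.19 (adjusted p = 0.0192) and -0.22 (adjusted p = 0.0108), both past the threshold. VHL, the substrate receptor of the ligase (chromosome 3, 10141008 to 10152220), was at 173, 158 and 149.8 CPM in culture, 147, 145 and 136 CPM at day 19 and 142, 145 and 141 CPM at day 40. The 6 femur libraries all lay below the 3 culture libraries. The log2 fold changes of VHL, -0.16 (adjusted p = 0.0512, 95% interval -0.31 to -0.02) and -0.17 (adjusted p = 0.0533, 95% interval -0.31 to -0.02), missed the threshold narrowly. They passed with DESeq2 (adjusted p = 0.0494 and 0.0428), with a block for the sampling period (adjusted p = 0.0413 and 0.044), without culture replicate 2 (-0.18 and -0.19, adjusted p = 0.0381 and 0.0367) and without culture replicate 3 (-0.23 at both days, adjusted p = 0.0156 and 0.0173); at day 19 also without day 40 replicate 1 (-0.18, adjusted p = 0.0487).

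**Figure D2:**
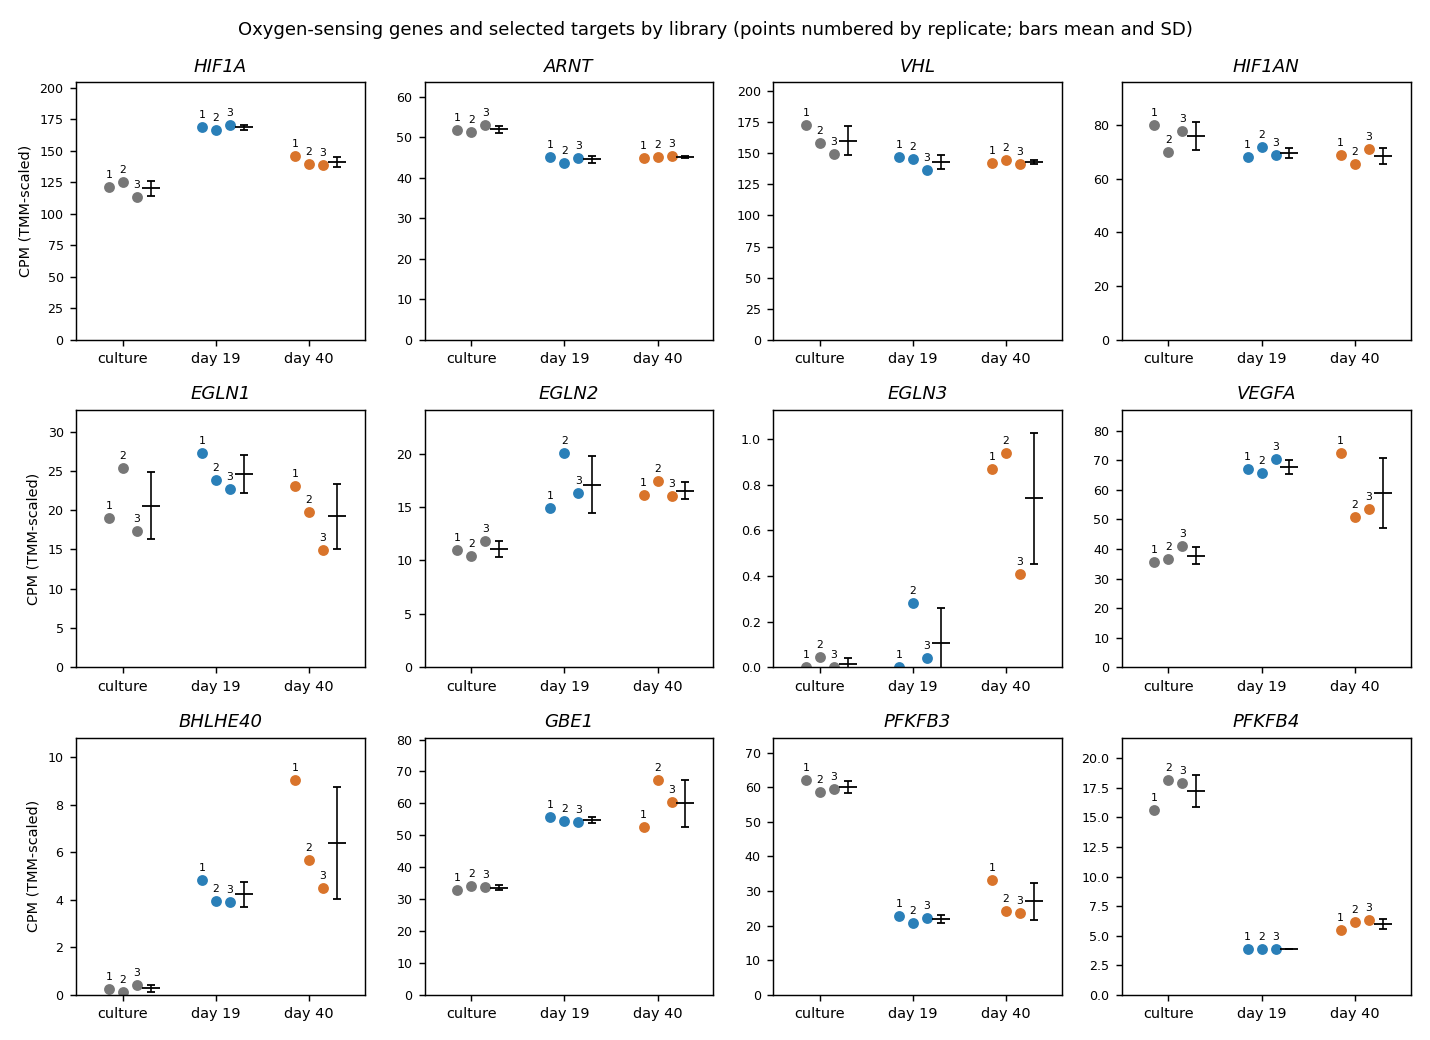
CPM on TMM-scaled library sizes (y axis, each panel from 0 on its own scale) of 12 genes in culture, day 19 and day 40; each point is 1 library, numbered by replicate, and the bar beside it is the mean with the SD. HIF1A, EGLN2, VEGFA, BHLHE40 and GBE1 lie higher in all 6 femur libraries than in culture, PFKFB3, PFKFB4, ARNT and VHL lie lower, and the EGLN1 groups overlap.

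Among the secreted and surface proteins, VEGFA, the main growth factor for blood vessels (chromosome 6, 43770184 to 43786487), rose. VEGFA was at 35.5, 36.7 and 41.1 CPM in culture, 66.9, 65.8 and 70.3 CPM at day 19 and 72.5, 50.96 and 53.5 CPM at day 40. All 6 femur libraries lay above culture, and day 40 replicate 1 stood apart from the other 2 libraries of its group. The rise was 1.79-fold at day 19 (0.84, SE 0.12, adjusted p = 8.53e-05) and 1.56-fold at day 40 (0.64, SE 0.12, adjusted p = 8.47e-04). The summed level of the stromal markers, mostly from PDGFRB, was higher in the femur libraries too, with the values given above. Its part in the level of VEGFA was not tested.

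The other 4 genes of this kind were at or near the limit of detection. CA9, the cell-surface carbonic anhydrase often used as a marker of hypoxia, had 0 counts in all 9 libraries, and a count of 0 allows up to 3 counts. ADM, which encodes the vasodilator peptide adrenomedullin, had 0, 0 and 0 counts in the culture libraries, 1, 0 and 0 at day 19 and 12, 0 and 1 at day 40. Of the 13 ADM counts of the day 40 group, 12 came from replicate 1; with culture set to the floor of 3 counts over the group, the day 40 level was at least 3.78-fold higher, and it rested on that library. ANGPTL4, a secreted inhibitor of lipoprotein lipase, had 9, 6 and 7 counts in the culture libraries, 7, 11 and 9 at day 19 and 6, 5 and 8 at day 40, with depth-scaled ratios to culture of 1.29 (95% counting interval 0.707 to 2.38) and 0.753 (0.385 to 1.46). MIF, a cytokine, was tested at only 1.02, 1.68 and 1.16 CPM in culture, 1.67, 1.77 and 1.395 CPM at day 19 and 0.906, 1.37 and 0.8605 CPM at day 40, and did not pass (0.33, adjusted p = 0.345, and -0.28, adjusted p = 0.438). The level of MIF is uncertain, because its exons share bases with a second annotated gene on the same strand, AP000350.4, which was listed at 0 counts in all 9 libraries, and how shared reads were counted is not stated; the antisense gene MIF-AS1 had 7 to 58 counts in a library.

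Of the 5 genes of glucose and glycogen metabolism, 3 fell, GBE1 rose and PGM1 did not pass, at both days. PFKFB3 and PFKFB4 encode enzymes that set fructose-2,6-bisphosphate, the activator of phosphofructokinase and so of glycolysis. PFKFB3 (chromosome 10, 6144934 to 6254644) was at 61.95, 58.6 and 59.4 CPM in culture, 22.8, 20.7 and 22.2 CPM at day 19 and 33.2, 24.2 and 23.6 CPM at day 40. All 6 femur libraries lay far below culture, and day 40 replicate 1 was the highest of them. PFKFB3 was 2.74-fold lower at day 19 (-1.45, SE 0.12, adjusted p = 7.60e-07) and 2.22-fold lower at day 40 (-1.15, SE 0.11, adjusted p = 8.19e-06).

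PFKFB4 (chromosome 3, 48517684 to 48562015) fell further. PFKFB4 was at 15.7, 18.1 and 17.9 CPM in culture, 3.87, 3.86 and 3.89 CPM at day 19 and 5.47, 6.14 and 6.35 CPM at day 40. The 3 day 19 libraries were nearly equal, the day 40 libraries lay between them and culture, and no groups overlapped. PFKFB4 was 4.44-fold lower at day 19 (-2.15, SE 0.13, adjusted p = 5.40e-08) and 2.88-fold lower at day 40 (-1.53, SE 0.12, adjusted p = 1.33e-06).

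PDK1, the kinase that keeps pyruvate out of the mitochondrial citric acid cycle, fell from 57.8 ± 7.66 CPM in culture (mean ± SD, n = 3, as for the other genes given this way) to 33.98 ± 0.479 CPM at day 19 and 33.9 ± 1.299 CPM at day 40. Its log2 fold changes were -0.77, SE 0.09, adjusted p = 2.01e-05 at day 19 and -0.77, SE 0.09, adjusted p = 2.92e-05 at day 40, and no femur library overlapped culture. GBE1, which adds branches to glycogen (chromosome 3, 81489699 to 81762161), went the other way. GBE1 was at 32.8, 34.2 and 33.7 CPM in culture, 55.7, 54.6 and 54.1 CPM at day 19 and 52.5, 67.2 and 60.6 CPM at day 40. The day 19 libraries agreed closely, the day 40 libraries were spread around them, and all 6 lay above culture. The log2 fold changes of GBE1 were 0.71, SE 0.09, adjusted p = 2.70e-05 at day 19 and 0.84, SE 0.09, adjusted p = 1.02e-05 at day 40. PGM1, which interconverts glucose phosphates on the way to glycogen, did not pass, with 95% intervals of the log2 fold change of -0.06 to 0.22 at day 19 and -0.17 to 0.10 at day 40.

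The 3 mitochondrial genes had lower levels in the femur. FAM162A, a mitochondrial protein linked to cell death under hypoxia (chromosome 3, 122384176 to 122412334), fell from 47.2 ± 3.27 CPM in culture to 24.5 ± 2.29 CPM at day 19 (-0.94, SE 0.09, adjusted p = 2.83e-06) and 25.7 ± 1.05 CPM at day 40 (-0.88, SE 0.09, adjusted p = 8.19e-06). BNIP3L (NIX), a receptor for the removal of mitochondria by autophagy, fell from 44.6 ± 9.73 CPM to 28.8 ± 2.96 CPM (-0.63, SE 0.14, adjusted p = 0.00219) and 30.9 ± 2.95 CPM (-0.53, SE 0.14, adjusted p = 0.00746). For both genes all 6 femur libraries lay below the 3 culture libraries. BNIP3, a related mitophagy receptor, was at 12.2 ± 1.73 CPM in culture and 9.89 ± 0.265 CPM at day 19, where it did not pass (-0.30, adjusted p = 0.0924), and fell to 8.53 ± 1.23 CPM at day 40 (-0.51, SE 0.14, adjusted p = 0.00982). At day 40 without replicates 1 and 2, BNIP3 was at -0.31 (adjusted p = 0.247) and BNIP3L at -0.39 (adjusted p = 0.18), and neither passed.

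Of the 3 genes of the endoplasmic reticulum, P4HA1 and ERO1A fell at day 19 and had smaller differences from culture at day 40, where neither passed. P4HA1, a subunit of the prolyl hydroxylase that modifies collagen, was at 25.7, 36.7 and 26.4 CPM in culture, 21.02, 17.7 and 21.8 CPM at day 19 and 26.1, 24.4 and 26.5 CPM at day 40. The 3 day 19 libraries lay below the other 6, and culture replicate 2 was well above the other culture libraries. Its log2 fold changes were -0.55, SE 0.13, adjusted p = 0.00396 at day 19 and -0.20, SE 0.13, adjusted p = 0.219 at day 40. ERO1A, which drives disulfide bond formation in secreted proteins, was at 47.8 ± 1.301, 36.1 ± 1.06 and 42.7 ± 2.95 CPM in culture, day 19 and day 40, with log2 fold changes of -0.40, SE 0.07, adjusted p = 5.12e-04 and -0.16, SE 0.07, adjusted p = 0.0739. Without day 40 replicate 1, ERO1A passed as lower at day 40 too (-0.23, adjusted p = 0.0261). P4HA2, the sister of P4HA1, had 0, 0 and 1 counts in the culture libraries, 5, 3 and 1 at day 19 and 1, 0 and 0 at day 40 and was not tested.

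The 2 histone demethylases differed little from culture. KDM3A, which removes methyl groups from histone H3 lysine 9, was at 27.1 ± 3.25, 25.2 ± 1.66 and 29.6 ± 5.22 CPM in culture, day 19 and day 40 and did not pass (95% intervals -0.38 to 0.17 and -0.14 to 0.40 on the log2 scale). KDM4B, a demethylase of the same mark, fell at day 19 (-0.19, SE 0.06, adjusted p = 0.029). Its day 19 call was lost with scaling by total counts (-0.10, adjusted p = 0.201) and when culture replicate 1, culture replicate 2, day 19 replicate 2 or day 19 replicate 3 was left out, with values of -0.18, -0.16, -0.15 and -0.18 and adjusted p from 0.0528 to 0.12. At day 40 KDM4B did not pass (-0.14, adjusted p = 0.085), except without culture replicate 3 (-0.20, adjusted p = 0.0345).

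Among the other targets, BHLHE40 (DEC1), a transcriptional repressor of circadian and differentiation genes (chromosome 3, 4979116 to 4985323), changed most. BHLHE40 was at 0.255, 0.137 and 0.426 CPM in culture, 4.84, 3.96 and 3.89 CPM at day 19 and 9.02, 5.67 and 4.51 CPM at day 40. It was almost silent in culture and present in every femur library, and day 40 replicate 1 was the highest. The log2 fold changes were 3.90, SE 0.38, adjusted p = 4.22e-06 at day 19 and 4.50, SE 0.37, adjusted p = 1.81e-06 at day 40. The 3 libraries of a group together held 20 BHLHE40 counts before grafting, 287 at day 19 and 528 at day 40, with depth-scaled ratios to culture of 15.1 (95% counting interval 9.58 to 25.1) and 23.01 (14.7 to 37.98). The summed level of the stromal markers, mostly from PDGFRB, was also higher in the femur libraries and reached 7.54 CPM. Its part in the level of BHLHE40 was not tested.

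ANKZF1, which acts in the quality control of stalled ribosomes, rose from 43.7 ± 1.697 CPM in culture to 61.3 ± 0.516 CPM at day 19 (0.49, SE 0.07, adjusted p = 9.95e-05) and 58.3 ± 4.18 CPM at day 40 (0.41, SE 0.07, adjusted p = 4.82e-04). DDIT4 (REDD1), an inhibitor of mTORC1 signalling that is induced by stress, was at 21.2, 27.8 and 23.99 CPM in culture, 28.98, 23.2 and 31.4 CPM at day 19 and 42.2, 27.4 and 29.9 CPM at day 40. The groups overlapped, and the highest library was day 40 replicate 1. DDIT4 did not pass at day 19 (0.20, adjusted p = 0.329) and rose at day 40 (0.45, SE 0.16, adjusted p = 0.0388). That call did not stand without culture replicate 1 (0.36, adjusted p = 0.134), culture replicate 3 (0.42, adjusted p = 0.0904), day 19 replicate 1 (0.45, adjusted p = 0.053) or day 40 replicate 1 (0.23, adjusted p = 0.213). With day 40 replicates 1 and 2 both left out, the day 40 value of DDIT4 was 0.29. INSIG2, which holds back cholesterol synthesis, and ANKRD37 did not pass at either day, with log2 fold changes between -0.05 and 0.16. NDRG1, a stress gene strongly induced by hypoxia in many tissues, had 0, 0 and 0 counts in the culture libraries, 0, 1 and 1 at day 19 and 0, 0 and 0 at day 40.

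Scaled to exon length, VHL and HIF1A were the most abundant of the group. The length counts all annotated exons of a gene, whether or not they are used here, so the order of the genes depends in part on the annotation. VHL was the highest in culture and at both days in the femur, at 38.03 ± 2.75 CPM per kilobase in culture, 33.9 ± 1.402 at day 19 and 33.9 ± 0.403 at day 40. HIF1A followed, with 23.3 ± 1.18, 32.7 ± 0.368 and 27.4 ± 0.7901 CPM per kilobase. The level of HIF1A at day 19 came within the spread of that of VHL. PGM1 was next, at 19.6 ± 0.946, 20.7 ± 0.211 and 19.2 ± 1.004 CPM per kilobase. Among the HIF hydroxylases HIF1AN stood highest, with 5.45 ± 0.378 CPM per kilobase in culture, beside 2.83 ± 0.584 for EGLN1 and 1.68 ± 0.113 for EGLN2. EGLN1 was above EGLN2 in culture and at day 19. At day 40 they stood at 2.65 ± 0.568 and 2.51 ± 0.119, which did not differ beyond their spread. This order may depend on how reads in the shared exon bases of EGLN2 were assigned, which is not stated. PFKFB3 went from 9.81 ± 0.289 CPM per kilobase in culture to 3.58 ± 0.172 at day 19, and GBE1 from 6.49 ± 0.146 to 10.6 ± 0.162, so the order of these genes in culture was the reverse of that in the femur.

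**Figure D3:**
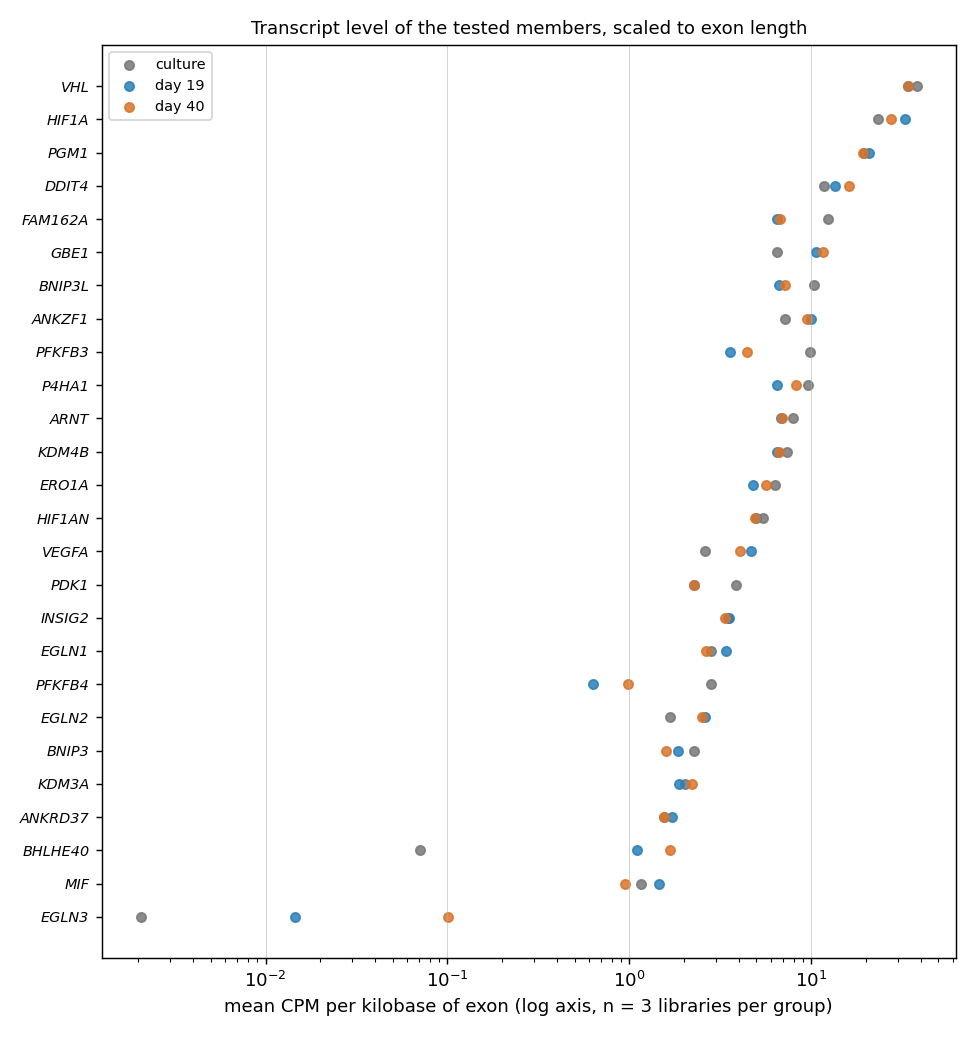
Mean CPM per kilobase of exon (x axis, log scale) of the 26 tested genes in culture (grey), day 19 (blue) and day 40 (orange), with n = 3 libraries per group and genes ordered by their highest group mean. VHL and HIF1A are at the top in all groups, EGLN3 and BHLHE40 are the lowest in culture, and the distance between the colours is largest for EGLN3, BHLHE40 and PFKFB4.

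HIF binds a short hypoxia response element, whose core is written ACGTG or GCGTG. Both cores were searched on both strands of the RefSeq promoter windows (build GRCh38.p14), which run from 250 bases before to 50 bases after a gene's start. Of the 32 genes, 27 had a window, 35 windows in all; ANKZF1, BNIP3L, NDRG1, VEGFA and VHL had none. The upstream bases of 4 genes are printed because they are the promoters of known HIF targets that moved in opposite directions, BHLHE40 and GBE1 higher and FAM162A and PFKFB4 lower in both femur groups. Each is written 5′ to 3′ on the strand of its gene, capitals mark a core on either strand, and the GENCODE 29 models of BHLHE40, GBE1 and PFKFB4 also include starts further upstream.

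BHLHE40 (chr3:4979187-4979436, plus strand): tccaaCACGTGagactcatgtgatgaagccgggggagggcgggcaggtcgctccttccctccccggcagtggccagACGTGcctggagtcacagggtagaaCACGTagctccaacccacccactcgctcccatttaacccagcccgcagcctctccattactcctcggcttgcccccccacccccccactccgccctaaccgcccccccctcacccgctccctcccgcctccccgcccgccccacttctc
GBE1 (chr3:81761646-81761895, minus strand): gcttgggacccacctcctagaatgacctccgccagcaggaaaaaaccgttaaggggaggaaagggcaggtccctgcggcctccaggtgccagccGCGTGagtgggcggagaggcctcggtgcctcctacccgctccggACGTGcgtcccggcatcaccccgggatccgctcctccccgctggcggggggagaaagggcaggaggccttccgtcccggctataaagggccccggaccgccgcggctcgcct
FAM162A (chr3:122383932-122384181, plus strand): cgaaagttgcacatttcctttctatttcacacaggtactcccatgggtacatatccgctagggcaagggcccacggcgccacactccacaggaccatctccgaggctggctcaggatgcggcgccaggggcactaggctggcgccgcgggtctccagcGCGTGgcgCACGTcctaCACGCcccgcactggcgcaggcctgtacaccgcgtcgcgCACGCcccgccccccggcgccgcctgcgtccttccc
PFKFB4 (chr3:48556804-48557053, minus strand): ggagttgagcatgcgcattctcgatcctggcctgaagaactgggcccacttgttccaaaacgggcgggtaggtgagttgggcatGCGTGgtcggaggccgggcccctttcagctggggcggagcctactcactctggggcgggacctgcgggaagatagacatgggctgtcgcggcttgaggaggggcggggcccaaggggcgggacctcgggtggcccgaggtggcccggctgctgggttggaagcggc

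All 4 stretches hold at least 1 core: BHLHE40 has 4 matches, GBE1 2, FAM162A 4 and PFKFB4 1. The 2 matches of BHLHE40 furthest from its start, at 245 and 244 bases before it, are the same CACGTG read on both strands, and CACGTG always counts as ACGTG on both strands. Over the group, 23 of 27 genes had either core in a window (85.2%), beside 52.4% of all 27305 genes with a window. ACGTG was found in 18 of 27 genes (66.7%, beside 24.9% of all genes) and GCGTG in 14 of 27 (51.9%, beside 40.6%). CACGTG was found in 6 of 27 genes (22.2%, beside 8.77%). The genes were chosen as members of the HIF pathway, so this share is no independent observation. Of the genes with a window that were higher in both femur groups, 4 of 4 held either core, and of those lower in both groups 4 of 5 did, the exception being ARNT. A match is a description of these letters and not a bound site or a cause.

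Other genes of the pathway were taken from a further list of 55, 18 of the sensing machinery and 37 hypoxia targets, of which 45 were tested. This list too was chosen with earlier results of these data known. At day 19, 10 of the 45 were higher and 19 lower (64.4% called, beside 52.8% of all genes), and at day 40, 12 were higher and 19 lower (68.9%, beside 46.6%). Among the 29 tested hypoxia targets, 5 were higher (17.2%) and 13 lower (44.8%) at each day, beside 26.3% higher and 26.5% lower of all genes at day 19 and 23.3% in each direction at day 40. CXCR4, the receptor that guides lymphocytes to bone marrow, rose from 123 ± 7.15 CPM in culture to 572 ± 68.3 CPM at day 19 (2.22, SE 0.10, adjusted p = 1.03e-08) and 440.1 ± 47.1 CPM at day 40 (1.84, SE 0.10, adjusted p = 7.08e-08). CITED2, which competes with HIF for the coactivators EP300 and CREBBP, rose by 1.20 at day 19 and 1.37 at day 40 on the log2 scale. PPFIA4 rose from 0.196 ± 0.0594 CPM to 1.93 ± 0.456 and 1.26 ± 0.258 CPM. RORA, a nuclear receptor, rose by 1.03 at day 19, and ADO, an oxygen-sensing thiol dioxygenase, by 0.49 at day 40, both log2.

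Among the lower genes, TFRC, the transferrin receptor that imports iron, fell from 339 ± 29.96 CPM in culture to 123 ± 10.1 CPM at day 19 (-1.47, SE 0.11, adjusted p = 3.17e-07) and 149 ± 21.99 CPM at day 40 (-1.18, SE 0.10, adjusted p = 3.38e-06). ALDOA (aldolase) fell from 1053 ± 48.6 CPM in culture to 626 ± 15.7 CPM at day 19 (-0.75, SE 0.07, adjusted p = 1.57e-06) and 645 ± 14.1 CPM at day 40 (-0.71, SE 0.06, adjusted p = 4.51e-06). As many as 1657 of the 3916 exon bases of ALDOA are shared with another gene on its strand, and how reads there were assigned is not stated. PGAM1 (phosphoglycerate mutase) had log2 fold changes of -0.45 and -0.42 at day 19 and day 40, the lactate transporter SLC16A1 of -0.42 and -0.40, and the lactate dehydrogenase LDHA of -0.42 and -0.49, and all of these passed. Of the sensing machinery, 5 of 16 tested genes were higher and 6 lower at day 19 (68.8% called, beside 52.8% of all genes), and 7 and 6 at day 40 (81.2%, beside 46.6%). The lower ones at both days included CUL2, ELOB, ELOC and RBX1, which were singled out after their values were seen. These 4 are partners of VHL in the ubiquitin ligase that recognises hydroxylated HIF. VHL itself did not pass the edgeR test at day 19 (adjusted p = 0.0512) or day 40 (adjusted p = 0.0533), and the ligase was not tested as a unit. PLOD2, TMEM45A and EGLN3-AS1 had 0 counts in all 9 libraries.

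Between the femur groups the differences were fewer. At day 40 against day 19, EGLN3 and PFKFB4 were higher and HIF1A lower, 3 of 26 tested genes (11.5%), beside 4.68% of all genes (3.23% higher and 1.45% lower), and the median log2 fold change was 0.01, beside 0. HIF1A fell by 0.26 on the log2 scale from day 19 to day 40 (95% interval -0.38 to -0.13, adjusted p = 0.027), PFKFB4 was higher at day 40 (0.63, SE 0.13, adjusted p = 0.0157), and EGLN3 had a depth-scaled ratio of 7.35 (95% counting interval 3.36 to 19.03, adjusted p = 0.0432). For all 3 genes the day 40 libraries did not overlap the day 19 libraries. Of the further list, SLC2A3, a glucose transporter, was higher at day 40 (1.54, SE 0.32, adjusted p = 0.0172), as was ZNF395 (0.26, SE 0.06, adjusted p = 0.0263), and CXCR4 was lower (-0.38, SE 0.10, adjusted p = 0.0496). ZNF395 shares 2032 of its 5819 exon bases with FBXO16 on its strand, and how reads there were assigned is not stated.

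None of these 3 calls stood under every alternative. HIF1A kept a value of -0.24 to -0.28 but missed the threshold when any 1 of the 6 femur libraries was left out (adjusted p from 0.0595 to 0.13). PFKFB4 kept 0.60 to 0.63 but missed it without day 19 replicate 1, 2 or 3 or day 40 replicate 2 (adjusted p from 0.054 to 0.0694). EGLN3 missed it without culture replicate 1 (2.79, adjusted p = 0.0628), culture replicate 3 (2.79, adjusted p = 0.0513), day 19 replicate 1 (2.22, adjusted p = 0.134) or day 19 replicate 3 (2.41, adjusted p = 0.202). Low counts left EGLN3 with a result in only 12 of the 18 alternatives. Its fitted log2 value, 2.79 with all libraries, reached 4.83 without day 19 replicate 2, the library with 6 of the 7 day 19 counts. VEGFA, not called between femur groups (-0.20, adjusted p = 0.443), was lower at day 40 without day 40 replicate 1 (-0.37, adjusted p = 0.0344), and P4HA1 (0.35, adjusted p = 0.192) was higher without culture replicate 2 (0.34, adjusted p = 0.031). Without day 40 replicates 1 and 2, which leaves a single day 40 library, the log2 value of HIF1A was -0.28 and that of PFKFB4 0.72. EGLN3 had too few counts for that fit.

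Libraries of a group were not alike for these genes. Culture replicate 2 was the highest culture library for 17 of the 26 tested genes (65.4%) and for 14 of the 19 tested targets (73.7%), beside 43.6% of all genes. Of the further 29 hypoxia targets it was the highest for 17 (58.6%). At day 19, replicate 2 was the lowest library for 11 of the 19 tested targets (57.9%) and for 17 of the further 29 (58.6%), beside 33.9% of all genes. Within the femur at day 40, replicate 1 was the highest library for 10 of the 19 tested targets (52.6%), beside 35.4% of all genes. Of the further 29 targets, however, it was the highest for 10 (34.5%) and the lowest for 12 (41.4%). The 10 of the group included VEGFA, BHLHE40, DDIT4, PFKFB3, KDM3A and ANKRD37, and ADM was detected mainly in the same library. By its title, day 40 replicate 1 is dated only 11 days after the culture library of its period, and whether the date has a part in its levels was not tested.

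**Figure D4:**
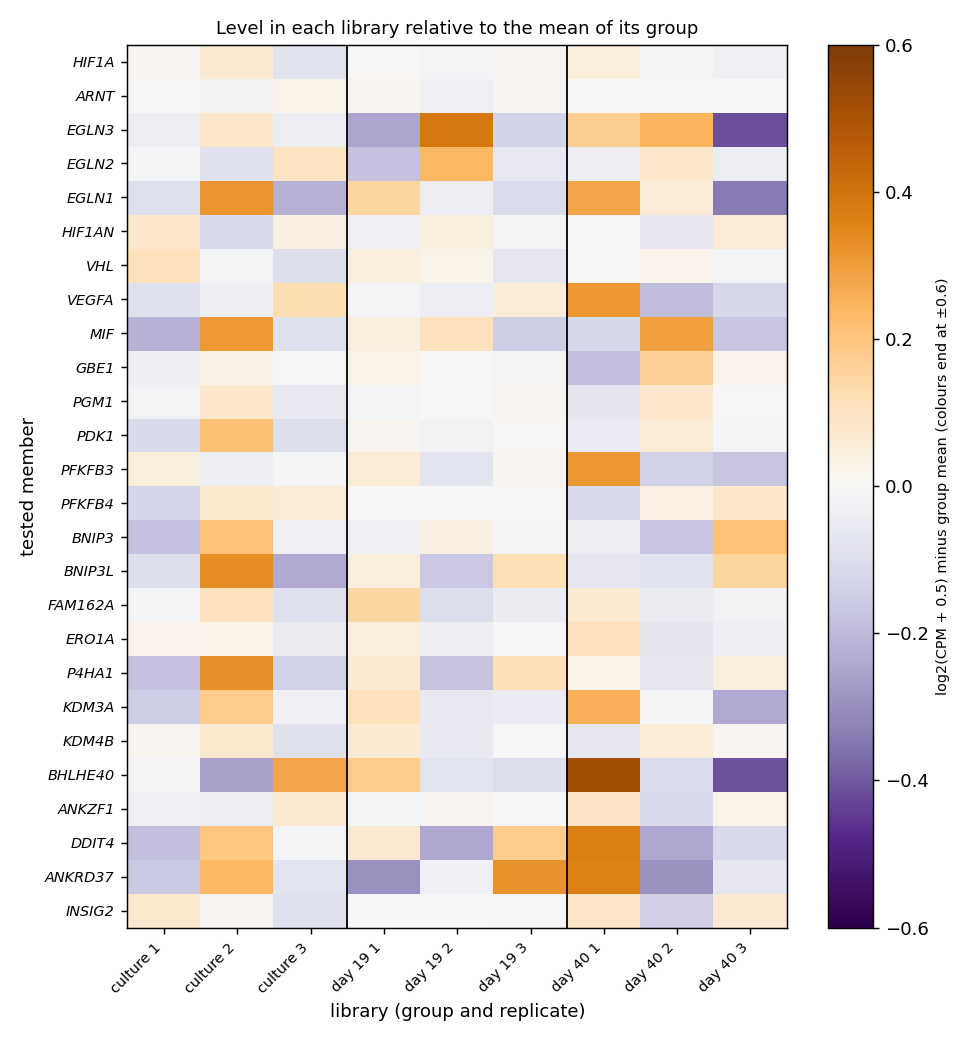
Level of each tested gene in each of the 9 libraries (columns) relative to the mean of that library's group, as a difference of log2(CPM + 0.5), with orange for higher and purple for lower. Culture replicate 2 is orange in most rows, and day 40 replicate 1 is orange for BHLHE40, DDIT4, ANKRD37, VEGFA and PFKFB3.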

How the data were processed

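Raw counts of reads per gene, as whole numbers in 1 file per library, were deposited by the authors; no normalization had been applied. FastQC 0.11.5, STAR 2.5.2a, featureCounts 1.4.6, DESeq2 1.40.1 and hg38 are named in the submitters' processing notes. Not given in the sources used here are the gene annotation, strand setting, trimming, and what was done with multi-mapping and mouse reads. If strand was ignored, a gene and a partner overlapping it on the opposite strand share reads that cannot be told apart: 17 of the 32 genes overlap such a gene in GENCODE 29 (among them HIF1AN with NDUFB8, PGM1 with ITGB3BP, FAM162A with WDR5B and ANKRD37 with UFSP2), 4 overlap a gene on the same strand, and 13 overlap none. GENCODE 29 named 57980 of 58243 identifiers and gave positions and exon lengths.

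Titles gave each library's group. The counts went into edgeR 4.0.16 under R 4.3.3 (filterByExpr, which left 15163 genes; TMM scaling; glmQLFit and glmQLFTest, two-sided, 1 coefficient per group over all 9 libraries, Benjamini-Hochberg over all tested genes). Every adjusted p of a gene comes from this test unless another tool or setting is named. In parentheses, the first value is the log2 fold change, followed by its SE and adjusted p. CPM uses TMM-scaled library sizes. Intervals are 95%; those of count ratios are exact and, like the floor of 3 counts, cover counting error only, since the reads carry no molecular identifiers and are not independent molecules. The script was tested on simulated data. Alternatives were RLE and total-count scaling, no filter, at least 1 CPM in 3 libraries, DESeq2 1.42.0, limma 3.58.1 voom, 2 groups only, a block for sampling period, and leaving out each library. Leaving out day 40 replicates 1 and 2 together was added after seeing the data.

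The sampling periods were read from the title dates, with 1 library of each group in each period, and the labels do not state them. Deviations from group means correlated at 0.101, 0.132 and 0.305 for the 3 same-period pairs of day 19 and day 40 libraries. They correlated between -0.05 and 0.202 for the same-period pairs with culture, and other periods gave -0.2 to 0.087. The tests above used no pairing in any comparison, and the period entered only as the block named among the alternatives.

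By rule, every gene of the group was accounted for, with values in each library for the HIF subunits and sensing genes and for called genes with at least a 2-fold change and 5 CPM; the other library values (VEGFA, GBE1, P4HA1, DDIT4, MIF and the low-count genes) were chosen after they were seen. Of the further list, up to 4 called genes with the smallest p per direction and comparison were named, and those at 0 counts. CUL2, ELOB, ELOC and RBX1 were named outside this rule, after their values were seen. The genes and lists were chosen with earlier results of these data known.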

Additional observations from a re-analysis of the deposited data

Results flagged for a closer look

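The change against culture differed between the 2 femur days, by the direct test of day 40 against day 19 over the same culture libraries, for 3 genes of the group. HIF1A was above culture at both days and lower at day 40 than at day 19, with a log2 difference of -0.26. PFKFB4 was below culture at both days and less so at day 40, with a difference of 0.63. EGLN3 was close to 0 in culture and at day 19, and the fitted difference between day 40 and day 19 was 2.79, from counts of 24, 28 and 10 against 0, 6 and 1. Each of these 3 calls was lost when a single library out of several named in the report was left out. Of the 3 day 40 libraries, 2 carry title dates that, if they are dates of collection, are too early for day 40 of the culture in their period. What part this has in the differences was not tested.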

How the results depend on the processing

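In the comparison of day 19 with culture, 13 of the 15 calls of the group stood wherever they were tested in 17 alternative settings, with ARNT and KDM4B as exceptions, and at day 40 also 13 of 15, with ARNT and DDIT4 as exceptions; no call reversed its direction. Scaling by total counts moved the split over all genes from 3994 higher and 4013 lower (49.9% higher) to 4652 and 3216 (59.1%) at day 19, and from 3527 and 3538 (49.9%) to 4155 and 2650 (61.1%) at day 40. Leaving out each library in turn gave, for the group, 6 to 7 higher and 8 to 10 lower genes at day 19, and 6 to 8 higher and 7 to 9 lower at day 40. Over all genes it gave 6804 to 8127 calls at day 19 and 5940 to 6778 at day 40. For day 40 against day 19, it gave 0 to 3 higher and 0 to 1 lower genes of the group (2 and 1 with all libraries), 0 to 2 higher and 0 to 1 lower of the further pathway list, and 280 to 1193 of all genes (710 with all libraries). Also in that comparison, the stricter filter and DESeq2 each gave 1 higher gene of the group, no filter gave 2 lower, scaling by total counts and limma voom each gave 0 lower genes of the further list, and all genes came to 1324 with no filter and 1100 with only those groups in the fit. Without a filter, EGLN1 (-0.35, adjusted p = 0.0487) and P4HA1 (0.35, adjusted p = 0.0365) passed there, as did P4HA1 with only those groups (0.35, adjusted p = 0.0456), and with scaling by total counts PGM1 passed at day 19 (0.17, adjusted p = 0.0296).

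Without day 40 replicates 1 and 2, day 40 against culture gave 4 higher and 4 lower genes of the group, 6 higher and 11 lower of the further list, and 4065 of all genes, and day 40 against day 19 gave 0, 0, 0 and 0 in the same order and 99 of all genes. This leaves a single day 40 library, assumed to vary like the other groups, so fewer samples enter by construction. With this setting counted among the alternatives, the day 40 calls against culture of ARNT, BNIP3, BNIP3L, DDIT4, EGLN2 and HIF1A did not stand everywhere. EGLN3 could not be tested in this setting. Over the 18 alternatives, it had a result in 14 for day 40 against culture and in 12 for day 40 against day 19.

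For culture against the femur groups, not every same-period pair of libraries was correlated over 0.1. The periods were not taken as pairs in the tests of any comparison, including that between the femur groups. Over all groups, 14 of 18 comparisons of a library with another group were best with its own period. With the block for the period, the group had 6 higher and 10 lower genes at day 19, 8 and 8 at day 40, and 2 and 1 between the days, with 8319, 7361 and 966 of all genes. Between the femur groups it changed no call of the 26 tested genes, and against culture only that of VHL. Depth limits CA9, NDRG1, EPAS1, P4HA2, ADM and EGLN3, and with 3 libraries per group small differences such as that of VHL lie at the edge of the test.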
